A study of Homo sapiens with 4 samples.

Results

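The genes described here encode splicing factors and related RNA-binding proteins, chosen by symbol: SRSF, HNRNP, SF3A, SF3B, RBM, PRPF, U2AF, CELF, MBNL, CLK, PTBP, LSM and SNRP genes that appear in either of the authors' 2 deposited tables of differences. The gene table held 9 of them among 684 genes, and the transcript table held 25 of their transcripts among 1040. The cells were LP-1, an established human multiple myeloma line, that had received, by lentivirus, a guide RNA for HRP2 (2 libraries) or a non-target control (2 libraries). HRP2 is a reader of methylated histones, and its gene is HDGFL2. No drug is named for either group, and the labels do not say whether the guide edits or represses, whether the cells were a pool or a clone, or whether replicate libraries were grown separately. For each row both tables give the log2 ratio of knockdown to control (log2 fold change) with a Q value but no standard error, and hold only rows with a Q value under 0.05. The members were therefore chosen partly by the difference itself, and their direction and size are given as a description with no test. No library-level value entered the analysis, so neither the spread within a group nor the depth behind a value is known, and a Q value may measure technical spread alone. In bulk RNA a change in the RNA per cell and a change in the mixture of cells cannot be told apart.

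Splicing removes introns in the spliceosome, which is built from small nuclear ribonucleoprotein particles (snRNPs), each a small nuclear RNA with particle-specific proteins and a ring of Sm proteins or, for U6, of the related LSM proteins. The U1 and U2 snRNPs mark the ends of an intron, and the U4/U6.U5 tri-snRNP then joins them. SR proteins, rich in serine and arginine, mostly promote the use of exons they bind, hnRNP proteins often oppose it, and CELF and MBNL proteins set tissue patterns of exon choice. Many of these proteins control the splicing of their own transcripts, and their genes give rise to many isoforms.

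The knockdown was visible in the targeted transcript, with HDGFL2 at a log2 fold change of -1.37 (Q = 2.99e-13) in the authors' deposited gene table. Levels of cell type markers could not be checked from tables of differences. Of the plasma cell and myeloma markers, 4 had rows in the authors' deposited gene table, and all 4 were lower: FGFR3 at -1.14 (Q = 8.73e-08), IRF4 at -0.63 (Q = 0.00323), TNFRSF17 at -0.48 (Q = 0.0392) and SDC1 at -0.45 (Q = 0.0446). PRDM1, XBP1, CD38, JCHAIN and NSD2 had no row, nor had markers of earlier B cells (MS4A1, PAX5), T cells (CD3D, CD3E), myeloid cells (CD14, LYZ) and erythroid cells (HBB). The lower plasma cell markers stand beside the higher splicing factor genes described next, and their part in those values was not tested.

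All 9 genes of the group in the gene table were higher in HRP2 knockdown cells, by 1.32 to 1.84 times. The 9 lie on 9 different chromosomes and come from 5 families: SNRPA1 and SNRPD1 of the snRNP proteins, HNRNPA2B1, HNRNPA3 and HNRNPH3 of the hnRNP proteins, RBM25 and RBM47, SRSF2 and PRPF3. Their median log2 fold change in the authors' deposited table was 0.58, against 0.66 for the other 352 higher genes, and 6 of the 9 lay under that median. Over the whole deposited table, 361 of 684 genes were higher (52.8%). A Q value under 0.01 was reached by 4 of the 9 (44.4%, against 37.3% of all genes there), and an absolute log2 fold change of 1 by none of the 9 (against 21.8%). The submitters' list of names holds 156 mRNA genes of these families, so 5.77% were in the gene table, beside 2.81% of all 24237 listed mRNA genes. The list says nothing of which genes were expressed or tested, and the other 147 genes have no value here.

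**Figure D1:**
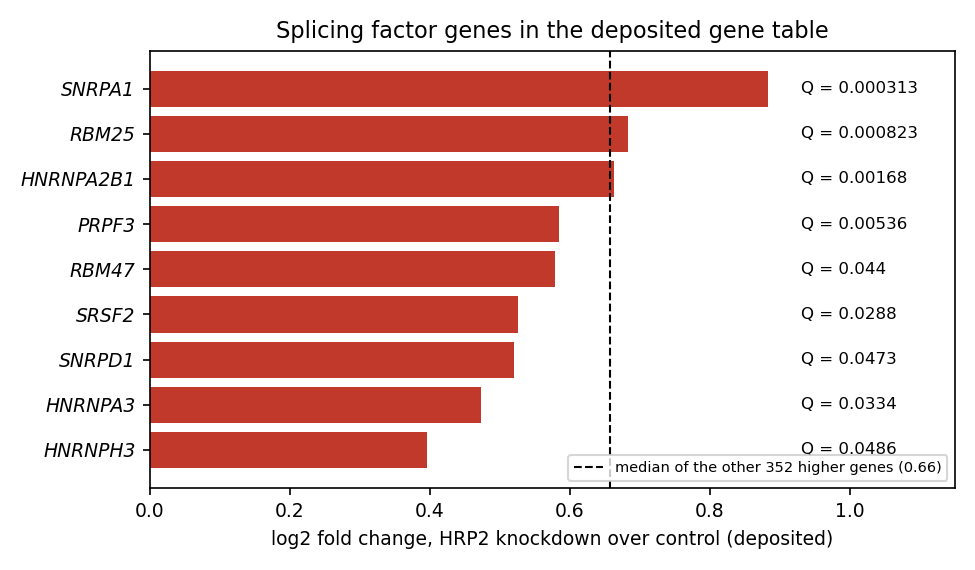
Bars give the deposited log2 fold change of HRP2 knockdown over control for the 9 splicing factor genes of the gene table, with the deposited Q value at the right, and the dashed line is the median of the other 352 higher genes. SNRPA1 has the longest bar at 0.88 and HNRNPH3 the shortest at 0.40, and 6 bars end before the line.

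The snRNP genes included the member with the largest change. SNRPA1 encodes protein A' of the U2 snRNP, and its log2 fold change was 0.88 (1.84 times the control level, Q = 0.000313) in the authors' deposited gene table. It ranked 79th by size among the 361 higher genes. Of the 31-base words in the longest SNRPA1 transcript, 54.3% also occur in other genes, most of them with the processed pseudogene AL078621.1 (46.4%), so that reads could have been split between copies during counting. SNRPD1, one of the Sm proteins of the ring that the U1, U2, U4 and U5 snRNPs have in common, lay at 0.52 (1.43 times, Q = 0.0473) in the authors' deposited table. It shared 16.2% of its words with other genes. The other 10 listed SNRP genes, SNRPA, SNRPB and SNRPD3 among them, were outside the gene table. None of the 9 listed SF3A and SF3B genes, which encode further U2 snRNP proteins, was in it either, nor were any of the 4 U2AF genes or the 13 LSM genes. The gene table holds 2.81% of all listed mRNA genes, so families of this size could lack a row without differing from other genes.

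PRPF3, a protein of the U4/U6 particle, was the only one of 13 PRPF genes in the gene table, at a log2 fold change of 0.58 (Q = 0.00536) in the authors' deposited values. Of the 12 SR protein genes only SRSF2 appeared there, at 0.53 (1.44 times, Q = 0.0288 in the authors' deposited table). SRSF2 binds exonic enhancers and is recurrently mutated in myeloid neoplasms. The 4 CLK kinase genes, whose products phosphorylate SR proteins, had no row. With 2.81% of all listed mRNA genes in the gene table, families of this size could have 1 row or none without differing from other genes.

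Of 25 hnRNP genes 3 were in the gene table, beside 2.81% of all listed mRNA genes. HNRNPA2B1, which binds UAG-containing RNA and encodes the A2 and B1 isoforms, had a log2 fold change of 0.66 (1.58 times, Q = 0.00168) in the authors' deposited table. Its close relative HNRNPA3 was at 0.47 in the same table (1.39 times, Q = 0.0334), with 19.2% of its sequence words shared, mostly with the pseudogene HNRNPA3P6. HNRNPH3, of the HNRNPH and HNRNPF subfamily that binds runs of G, was at 0.40 (1.32 times, Q = 0.0486), the smallest log2 fold change of any higher gene in the authors' deposited table. HNRNPA1 and HNRNPK had no row at the gene level, although transcripts of both were in the transcript table.

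The RBM genes named for an RNA-binding motif had 2 of 52 listed members in the gene table, which holds 2.81% of all listed mRNA genes. RBM25, a factor associated with the U1 snRNP, was at 0.68 (1.60 times, Q = 0.000823) in the authors' deposited table. RBM47, an RNA-binding cofactor of APOBEC1 in C-to-U editing, was at 0.58 (1.49 times, Q = 0.0440). RBM47 and PRPF3 thus had almost the same fold change with Q values of 0.0440 and 0.00536. The members nearest the 0.05 limit of the authors' deposited table were HNRNPH3 (Q = 0.0486), SNRPD1 (0.0473) and RBM47 (0.0440), and no value outside the limit is known.

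Base composition and genomic surroundings were looked at because the rule for choosing the genes did not use them. The median GC content of their transcripts was 43.6%, with a range of 40.9% for SNRPD1 to 59.4% for RBM47, against medians of 46.7% for the other higher genes and 57.5% for lower genes. Of the 9 genes, 6 lay under the median of the other higher genes, and PRPF3 (48.5%), SRSF2 (52.5%) and RBM47 (59.4%) lay over it. GC content moved with direction over all genes of the table, and its part in these values was not tested. Median transcript length was 1567 nucleotides, against 1849 for the other higher genes. GC content and length are medians over the annotated protein-coding transcripts of each gene, and not over the RNA measured. For RBM25 that median is 1567 nucleotides, while its transcript in the transcript table pairs with an annotated one of 6910. None of the 18 protein-coding genes next to the members was in the gene table, among them CBX3 beside HNRNPA2B1 and MFSD11 beside SRSF2. The gene table holds 2.81% of all listed mRNA genes, so 18 genes could lack a row without differing from other genes.

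**Figure D2:**
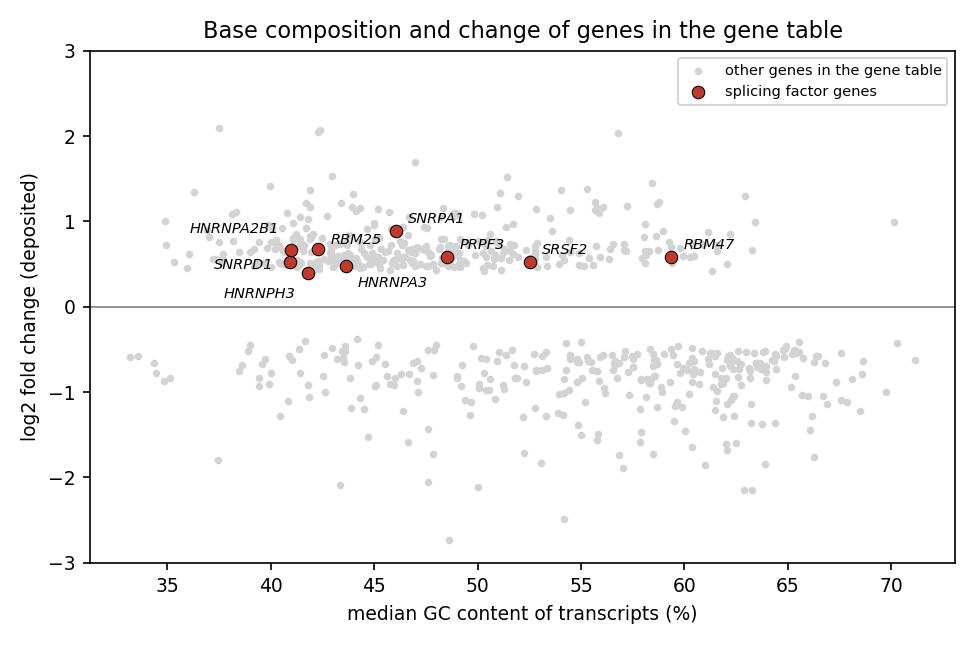
Each point is a gene of the deposited gene table, with the median GC content of its transcripts in percent on the x axis and the deposited log2 fold change on the y axis; red points are the 9 splicing factor genes and grey points the others (9 genes beyond a log2 fold change of 3 in either direction and genes with no GC value are left out). The red points lie above 0, most of them between 40.9% and 48.5%, and RBM47 stands apart at 59.4%.

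Promoter sequences are shown for SNRPA1, RBM25 and HNRNPA2B1, the members with the lowest Q values. Each is the 250 bases before the annotated start, 5' to 3' on the strand of the gene, from RefSeq on GRCh38.p14 (chr15:101295249-101295498 minus strand, chr14:73058284-73058533 plus strand and chr7:26200747-26200996 minus strand). Capitals mark matches on either strand to TTCNNGAA or GAANNTTC (paired half-sites of a heat shock element), CCAAT (the CCAAT box) and CCGGAAG (an ETS site).
SNRPA1: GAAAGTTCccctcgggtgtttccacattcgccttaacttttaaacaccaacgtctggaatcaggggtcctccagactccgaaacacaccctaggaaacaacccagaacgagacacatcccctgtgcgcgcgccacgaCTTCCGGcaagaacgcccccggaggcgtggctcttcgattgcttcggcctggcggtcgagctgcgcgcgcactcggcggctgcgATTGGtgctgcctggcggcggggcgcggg
RBM25: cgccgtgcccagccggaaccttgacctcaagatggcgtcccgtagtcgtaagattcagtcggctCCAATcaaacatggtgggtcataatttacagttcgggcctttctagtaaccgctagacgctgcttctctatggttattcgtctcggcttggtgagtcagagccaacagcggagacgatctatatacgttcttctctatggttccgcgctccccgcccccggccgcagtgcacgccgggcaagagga
HNRNPA2B1: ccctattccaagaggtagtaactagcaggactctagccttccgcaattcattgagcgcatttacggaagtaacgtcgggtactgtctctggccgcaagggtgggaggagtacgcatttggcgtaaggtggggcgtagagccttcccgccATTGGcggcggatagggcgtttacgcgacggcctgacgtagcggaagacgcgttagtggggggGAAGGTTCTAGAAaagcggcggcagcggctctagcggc
Their GC contents were 63.2%, 56.4% and 59.2%, beside a median of 58.0% over all 35116 promoter windows, and they held 27, 22 and 24 CpG dinucleotides. The 300-base windows, which include 50 bases after the start, were present for 6 of the 9 genes (11 starts, since HNRNPH3 and RBM47 have several). CCAAT occurred in at least 1 window of all 6 genes and in 6 of the 11 windows, against 34.6% of all windows. TTCNNGAA was found in 2 of the 11 windows, of HNRNPA2B1 and RBM47 (7.74% of all windows). GAANNTTC was in 2 of the 11, of HNRNPA2B1 and SNRPA1 (6.77%). In HNRNPA2B1 the 2 forms overlap in one stretch, GAAGGTTCTAGAA, close to the start. CCGGAAG was found in 1 of the 11 windows, of SNRPA1 (10.3% of all windows), TATAAA in 1, of RBM47 (11.5%), and TGACGTCA in none (1.85%). GGGCGG was found in 7 of the 11 windows, from 4 of the 6 genes (45% of all windows). These matches describe the letters in the windows and not binding.

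At the transcript level the direction was mixed. The authors' deposited transcript table held 25 transcripts from 16 genes of these families, 13 higher and 12 lower, against 51% higher among all 1040 transcripts. Of the 16 genes, 13 had no row in the gene table, and only HNRNPA2B1, RBM25 and PRPF3 were in both. Sizes fell into 2 ranges: 9 transcripts had an absolute log2 fold change of 0.63 to 5.77, and 16 (64%) one of 8.46 to 12.14. Of all 1040 transcripts, 823 (79.1%) lay at 6 or more. Whether a transcript was at 0 in one group is not known here, so the larger values are given as deposited and not as ratios. By accession type, 7 were curated mRNA records (NM), 13 predicted mRNA models (XM) and 5 predicted non-coding models (XR, 20% against 6.06% of all transcripts in the table). The type column of the table nevertheless gives mRNA for all 25.

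**Figure D3:**
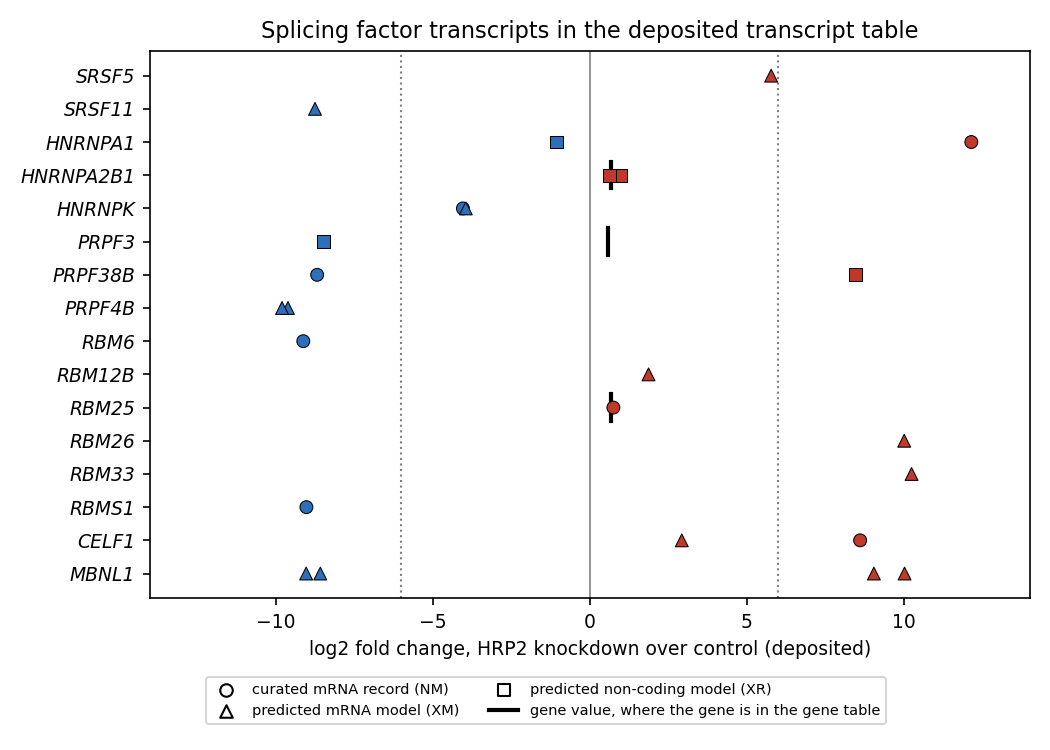
Each symbol is a splicing factor transcript of the deposited transcript table, placed by its log2 fold change on the x axis and its gene on the y axis; red is higher and blue lower, the shape gives the accession type, black ticks the gene value where there is one, and dotted lines a log2 fold change of 6 in each direction. Red and blue symbols are both present for HNRNPA1, PRPF38B and MBNL1, and the symbols of HNRNPA2B1 and RBM25 lie at their gene values.

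Transcripts of HNRNPA2B1 and RBM25 moved as their genes did. HNRNPA2B1 had 2 transcripts, XR_001744663.1 at 0.99 (Q = 0.0361) and XR_001744669.2 at 0.63 (Q = 0.00224), around its gene value of 0.66 in the authors' deposited tables. Both are predicted non-coding models, and no coding transcript of HNRNPA2B1 had a row. RBM25 had NM_021239.2 at 0.75 (Q = 0.0494) beside its gene value of 0.68. The transcript of PRPF3, the non-coding model XR_001737541.2, went against its gene, at -8.47 (Q = 0.0251) beside a gene value of 0.58 in the authors' deposited tables. No other transcript of PRPF3 was in the table.

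HNRNPA1, which encodes an hnRNP protein best known for silencing exons, had the highest value of the group and a lower transcript as well. NM_031157.3 was at 12.14 (Q = 6.48e-10), the largest change below 20 in the authors' deposited transcript table, and the non-coding model XR_245923.2 was at -1.05 (0.482 times the control level, Q = 0.00449). Another curated form of the gene, NM_002136.3, had no row in the transcript table, so the share of the 2 forms in either group is not known. Of the 31-base words of HNRNPA1, 30.1% also occur in 78 other genes, most of them with HNRNPA1P48 (25.8%), and whether reads from those copies entered the values was not tested.

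HNRNPK, a poly(C)-binding hnRNP protein with KH domains, had 2 transcripts of almost the same value, NM_031263.3 at -4.04 (Q = 0.000117) and XM_005251960.2 at -3.95 (Q = 0.00290), in the authors' deposited table. These are 0.0608 and 0.0648 times the control level, and the gene had no row in the gene table. NM_031263.3 has the same coding sequence as NM_002140.4 and differs from NM_031262.3 in its last coding exon, which is 31 coding bases at chr9:83969410-83969440 (minus strand, GRCh38) in place of 28. The ends of both reading frames are shown without the stop codon, with the last coding exon in capitals after 15 bases of the exon before it.
HNRNPK end in NM_031263.3: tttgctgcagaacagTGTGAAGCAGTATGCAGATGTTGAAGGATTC
HNRNPK end in NM_031262.3: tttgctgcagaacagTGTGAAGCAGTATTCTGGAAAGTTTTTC
Neither NM_002140.4 nor NM_031262.3 had a row. Of its 31-base words 30.9% also occur in 5 other genes, HNRNPKP4 the most.

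CELF1, which binds GU-rich RNA and opposes MBNL1 at many exons, had 2 higher transcripts in the authors' deposited table, NM_198700.2 at 8.60 (Q = 0.0202) and XM_017017120.1 at 2.93 (7.60 times the control level, Q = 0.0149). NM_198700.2 and another curated form, NM_006560.3, differ in their coding sequence by 3 bases at the start of exon 10 of 14 (chr11:47476957-47476959, minus strand, GRCh38). NM_006560.3 had no row in the transcript table, so the share of the 2 forms in either group is not known. The extra bases are in capitals, and both forms are shown because nothing else in the coding sequence tells them apart.
CELF1 in NM_198700.2: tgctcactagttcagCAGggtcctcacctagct
CELF1 in NM_006560.3: tgctcactagttcagggtcctcacctagct
The bases before the junction and the extra bases both end in CAG. MBNL1, the muscleblind protein that binds YGCY sites, had 4 transcripts, all predicted models: XM_005247467.5 at 10.02 (Q = 3.06e-05) and XM_017006425.2 at 9.04 (Q = 0.0218) were higher, and XM_017006442.1 at -9.03 (Q = 0.00234) and XM_017006432.2 at -8.58 (Q = 0.0441) were lower in the authors' deposited table. Neither CELF1 nor MBNL1 was in the gene table, nor was any other of the 9 listed CELF and MBNL genes. That table holds 2.81% of all listed mRNA genes, so 9 genes could lack a row without differing from others.

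Among the PRPF genes 4 of 5 transcripts, from 3 genes, were lower, beside 510 of all 1040 transcripts. PRPF38B, a relative of the spliceosome protein PRPF38A, had a curated transcript, NM_001349757.1, at -8.68 (Q = 0.0112) and a non-coding model, XR_001737264.2, at 8.46 (Q = 0.0345) in the authors' deposited table. PRPF4B, a kinase of the spliceosome, had 2 lower models, XM_017011425.2 at -9.80 (Q = 0.000778) and XM_017011420.2 at -9.61 (Q = 0.000153). Together with HNRNPA1 and MBNL1, PRPF38B made 3 genes with transcripts in both directions out of 7 that had 2 or more (42.9%). The same held for 88 of 135 such genes over the whole transcript table (65.2%). The other 4, CELF1, HNRNPA2B1, HNRNPK and PRPF4B, had transcripts in 1 direction each.

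The remaining RBM genes had 1 transcript each. RBM33 (XM_005249534.1) was at 10.24 (Q = 5.09e-06), RBM26 (XM_017020692.2) at 10.00 (Q = 1.44e-05) and RBM12B (XM_005250915.4) at 1.87 (3.65 times the control level, Q = 0.0352) in the authors' deposited table. The lower ones were curated records: RBM6 (NM_005777.2) at -9.12 (Q = 0.00391) and RBMS1 (NM_002897.4), a single-stranded nucleic acid binding protein, at -9.02 (Q = 0.00541). NM_005777.2 pairs with a GENCODE transcript of 21 exons and 3369 coding bases, and NM_002897.4 with one of 14 exons and 1218 coding bases. Of the SR proteins, SRSF5 (XM_017021593.2) was higher at 5.77 (Q = 0.0157) and SRSF11 (XM_024450927.1) lower at -8.75 (Q = 0.0125) in the authors' deposited table. SRSF2, the SR protein gene of the gene table, had no transcript row.

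The accessions limit what can be said of these isoforms. Of the 25 transcripts, 9 (36%) have an accession, in any version, in the RefSeq table for GRCh38.p14, against 66.0% of all 1040. In the exact version deposited, 6 were paired with a GENCODE 29 transcript: those of HNRNPA1, HNRNPK, CELF1, RBM25, RBM6 and RBMS1 with an NM accession. The structures of the predicted models of MBNL1, PRPF4B, RBM33 and RBM26 were not used here.

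Other RNA processing genes, from 6 lists outside these families, went mostly the same way at the gene level. The lists were written with earlier results of these data known. Of 269 genes matched, 15 (5.58%) were in the gene table, 13 of them higher and 2 lower, beside 2.81% of all listed mRNA genes. The list of names does not say which genes were expressed or tested, so these shares do not measure enrichment. Over all 684 genes, 52.8% were higher. The median log2 fold change was 0.54 for the 15 genes and 0.47 for all 684. Both mix higher and lower genes, whose medians over the whole table were 0.66 and -0.78, so they do not compare sizes of change. Among 66 other spliceosome components 3 were higher. They included GEMIN5, which brings small nuclear RNA to the SMN complex for Sm ring assembly, at 0.94 (Q = 0.00087), and the peptidyl-prolyl isomerase PPIL1 at 0.64 (Q = 0.0133) in the authors' deposited table. Among 63 other splicing regulators 3 were higher and 1 lower. SRPK1, a kinase of SR proteins, was at 0.63 (Q = 0.00109), TARDBP, which encodes TDP-43, at 0.51 (Q = 0.0129) and SAFB2 at 0.47 (Q = 0.0362), while CIRBP, a cold-inducible RNA-binding protein, was at -0.55 (Q = 0.00310) in the authors' deposited table. All 4 called genes of 31 for mRNA export and the nuclear exosome were higher. They were MPHOSPH6 at 0.92, the exosome subunit EXOSC7 at 0.74, SRRT at 0.51 and the cap-binding subunit NCBP2 at 0.49 in the authors' deposited table. Of 67 genes for mRNA stability and translation, IGF2BP2 (0.64), SSB (0.64), which encodes the La protein, and LARP4 (0.54) were higher. ZFP36L1, which promotes decay of AU-rich mRNA, was lower at -0.83 (Q = 0.0184) in the authors' deposited table. None of 17 genes of the exon junction complex and nonsense-mediated decay and none of 25 genes for 3' end processing were in the gene table, which holds 2.81% of all listed mRNA genes, so that lists of this size could lack a row without differing from other genes.

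**Figure D4:**
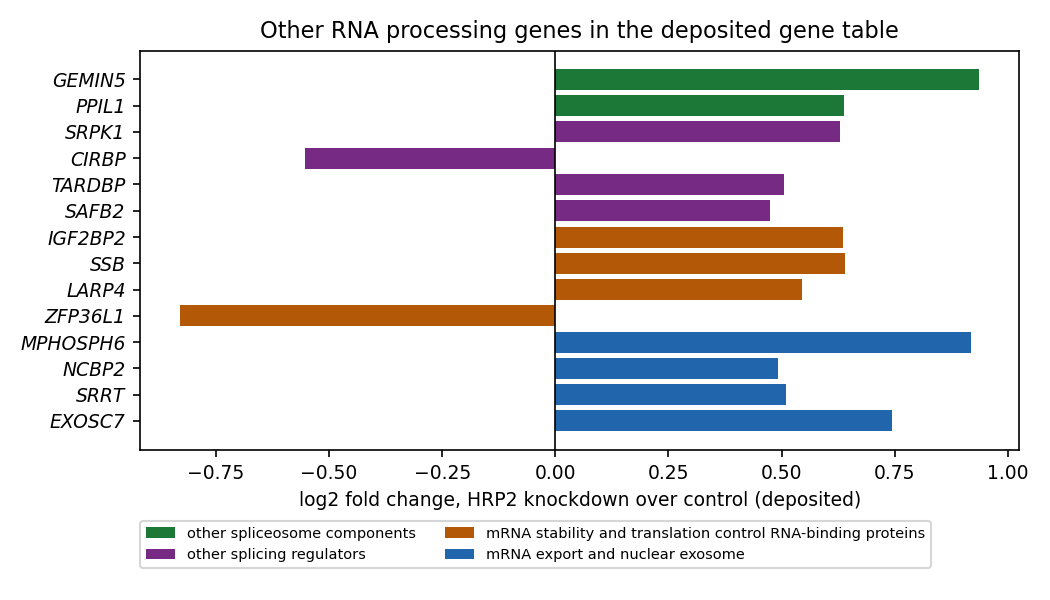
Bars give the deposited log2 fold change of HRP2 knockdown over control for 14 of the 15 genes of the RNA processing lists that are in the gene table, coloured by list. The bars of CIRBP and ZFP36L1 point left and the other 12 point right, none beyond 0.94.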

How the data were processed

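RNA of 4 LP-1 libraries, 2 per group, was extracted with Trizol and made into libraries by BGI's protocols, according to the labels. Per the submitters' processing notes, BWA, Bowtie2 and RSEM were used with the build hg19. Their versions and roles, the annotation, the normalization, strandedness and the test behind the Q values were not given in the sources used here. The log2 fold changes (knockdown over control) are the authors' deposited values, per the file headers. The Q values (p-values adjusted by the authors) are likewise as deposited. Other deposited tables gave names and RNA types only. No value per library was used, so the edgeR fit planned for counts was not run, and depth is unknown.

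Members were matched by symbol, and gene and transcript values were kept apart. GC content and length are medians over protein-coding transcripts of GENCODE 29 (GRCh38), available for all 9 members. Shared sequence is the percent of 31-base words found in transcripts of other genes, with 50% as the limit for leaving a gene out. Accessions, neighbours and promoters came from RefSeq (GRCh38.p14), whose build differs from the authors'. Coordinates belong to the printed sequences only. Python 3.11.15, pandas 2.3.3 and numpy 2.4.6 were used, and word sharing was tested on simulated data. Members and lists were chosen with earlier results of these data known. The text names every member, and of the other lists up to 6 called genes each by Q value, with some items not reported here. Alternatives were a stricter Q value, limits on the size of change and leaving out shared sequence.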

Additional observations from a re-analysis of the deposited data

How the results depend on the processing

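The depth of the libraries is unknown and limits every value. The 9 higher splicing factor genes became 4 with a Q value under 0.01 (SNRPA1, RBM25, HNRNPA2B1 and PRPF3, 44.4% against 37.3% of all genes in the gene table) and 0 with a minimum absolute log2 fold change of 1, which 21.8% of all genes reached. These limits only remove rows, and all 9 were higher as deposited, so none could have been lower under them. Leaving out SNRPA1, the 1 member over the limit for shared sequence, left 8. Of the 13 higher and 12 lower transcripts, 5 higher and 8 lower ones had a Q value under 0.01. The same split over all 1040 transcripts was not counted. An absolute log2 fold change under 6 was held by 6 higher and 3 lower ones, beside 123 higher and 94 lower over the whole transcript table. Among the other RNA processing genes the 13 higher and 2 lower became 6 higher and 1 lower with a Q value under 0.01, and 0 and 0 at the minimum of 1. These counts fall because fewer rows meet the limit. Leaving out transcripts at 20 or more in either direction removed none of the 25. The 13 higher, the 12 lower and the 3 genes with transcripts in opposite directions therefore could not have changed there. A minimum size of 1 left 10 higher and all 12 lower transcripts. A Q value under 0.01 left 2 genes with transcripts in opposite directions. The counts of 10 and 2 stayed within 1.5 times the values as deposited. No paired analysis was possible because the deposited tables hold no value per library, and leaving out a library and the edgeR fit were not run for the same reason.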

Other observations

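Transcripts of the other RNA processing lists were as mixed as those of the splicing factors, with 39 transcripts of 32 genes in the authors' deposited table, 20 higher and 19 lower, 31 of them at an absolute log2 fold change of 6 or more. Of all 1040 transcripts there, 51% were higher and 79.1% reached 6, close to the shares in these lists. Those with a smaller change included SCAF11, an SR-related factor, at 2.41 (Q = 8.12e-06), the nucleolar chaperone gene NPM1 at 0.80 (Q = 4.77e-05) and PABPC4, a poly(A)-binding protein, at -0.81 (Q = 0.000199). A transcript of SRPK1 (0.64) had the direction of its gene in the same deposited tables. The RNA helicase gene DDX6 had a transcript at 22.72, while transcripts of SYNCRIP, an hnRNP-like protein, and of THOC6, an mRNA export factor, were at -23.56 and -23.39 in the authors' deposited table. No splicing factor transcript of the families above reached 20. IGF2BP2, higher as a gene, had 3 higher transcripts (8.49, 8.81 and 11.14) and 1 lower (-8.48), and LARP4, also higher as a gene, had 1 transcript at -8.78. The features in this paragraph were chosen after their values were seen.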
